A study of Mus musculus with 7 samples.

Results

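Trp53, the mouse gene of the p53 protein, and 9 genes that p53 switches on were followed through the differentiation of mouse embryonic stem cells. The 10 genes were taken by name from the 30590 rows of the table, and all 10 were among the 21813 genes tested. They are Trp53 itself, the arrest gene Cdkn1a, the death genes Fas, Bbc3, Bax and Trp53inp1, and the feedback and growth control genes Mdm2, Ccng1, Phlda3 and Sesn1.

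p53 is a transcription factor that is held low by the ubiquitin ligase Mdm2 and accumulates when DNA is damaged or a cell is stressed. It then turns on genes that stop the cell cycle, that start apoptosis and that repair DNA, and among its targets is Mdm2, which closes a negative feedback loop. Mouse embryonic stem cells are known to transcribe Trp53 strongly and to divide with a short G1 phase, and differentiation is one of the settings in which p53 activity has been studied in them.

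The 7 libraries were bulk polyadenylated RNA of a stem cell line named Bry-GFP in the labels, with 2 libraries each for days 0, 2 and 4 and 1 for day 6, and the labels call the replicates biological. The day 0 cells were kept on mouse embryonic feeder fibroblasts in medium with 15% serum and LIF at 1000 U/mL. Day 2 cells had been separated from the feeders and suspended in serum-free medium at 75000 cells/mL for 48 h, so feeders, serum and LIF all differ from day 0 and their parts cannot be told apart. Day 4 cells had then been given 150 ng/mL of Noggin, 25 ng/mL of Wnt3a and 9 ng/mL of Activin A for 48 h, which is meant to induce primitive streak, and day 6 cells had been moved from these factors to basic FGF at 10 ng/mL for a further 48 h. The labels do not say if feeders had been removed when day 0 RNA was extracted, nor if the line is 1 clone. In bulk RNA, fewer cells of a type and less RNA per cell cannot be told apart.

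Promoter sequence is shown first for 4 targets, 3 with lower levels and Sesn1 with higher levels after day 0. A p53 site is built from 2 copies of a decamer motif and often lies near the start site. Each line gives the 250 bases before a RefSeq start site (GRCm38.p6), 5' to 3' on the strand of the gene. Capitals mark matches to the p53 half-site, which is 1 such decamer. A match is thus not a full p53 site, and full sites were not searched for.
Cdkn1a, chr17:29090729-29090978, plus strand: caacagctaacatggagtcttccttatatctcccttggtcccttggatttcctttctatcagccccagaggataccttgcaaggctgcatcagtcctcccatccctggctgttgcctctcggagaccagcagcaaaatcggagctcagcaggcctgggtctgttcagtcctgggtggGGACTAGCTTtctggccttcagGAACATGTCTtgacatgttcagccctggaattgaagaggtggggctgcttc
Ccng1, chr11:40755287-40755536, minus strand: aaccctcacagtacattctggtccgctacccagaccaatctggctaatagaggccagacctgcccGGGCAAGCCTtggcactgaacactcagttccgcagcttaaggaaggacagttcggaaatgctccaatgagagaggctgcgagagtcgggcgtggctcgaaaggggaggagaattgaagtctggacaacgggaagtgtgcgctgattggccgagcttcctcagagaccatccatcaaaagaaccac
Sesn1, chr10:41887189-41887438, plus strand: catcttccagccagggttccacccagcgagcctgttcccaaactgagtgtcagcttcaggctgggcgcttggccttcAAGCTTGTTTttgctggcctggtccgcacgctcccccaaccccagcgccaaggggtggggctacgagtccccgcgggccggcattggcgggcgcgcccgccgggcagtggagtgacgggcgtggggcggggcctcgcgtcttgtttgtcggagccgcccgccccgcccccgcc
Phlda3, chr1:135765835-135766084, plus strand: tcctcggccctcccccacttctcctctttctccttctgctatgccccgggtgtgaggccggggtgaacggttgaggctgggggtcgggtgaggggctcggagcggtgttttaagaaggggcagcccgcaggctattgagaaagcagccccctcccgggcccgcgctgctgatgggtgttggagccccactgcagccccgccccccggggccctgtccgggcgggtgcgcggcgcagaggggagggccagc
The Cdkn1a window shown held 2 matches, at positions -73 to -64 and -51 to -42 from the start site. The window of Ccng1 had 1 match, at -185 to -176, as did the Sesn1 window shown, at -173 to -164, and that of Phlda3 had none. Cdkn1a and Sesn1 each have 1 further RefSeq window, at chr17:29093519-29093768 and chr10:41810324-41810573, with no match, so the windows printed for them are those with one. RefSeq entries existed for 9 of the 10 genes, in 13 windows, of which 6 had a match (1 each for Bax, Ccng1, Cdkn1a, Mdm2, Sesn1 and Trp53), and 7.13% of all 32851 windows of the same length had one. The consensus reads the same on both strands, so each match was counted once. Genes with a match were found among those that were lower, higher and not called on day 2, and sites outside these windows were not searched. The Sp1-type motif GGGCGG, searched on both strands, was in 10 of the 13 windows, those of 7 genes, and in 32.7% of all windows.

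Levels are given as log2 of 1 plus scaled reads, on which a step of 1 is a doubling. They are not per gene length, so they are compared between libraries and not between genes. Rough depth was 2790000 to 5790000 reads per library, and a level below 1.45 to 2.30, depending on the library, stands for fewer than 3 reads. Each library had 16613 to 18215 genes above 0. Values of exactly 0 may come from failed estimation, since Gapdh, which all cells need for glycolysis, had 0 on day 6 and stood at 1.85 to 7.13 in the other libraries. All 8 pluripotent cell markers were above 0 in every library, and their summed scaled reads were 10534 and 9693 (day 0), 6918 and 6112 (day 2), 3688 and 4017 (day 4) and 1819 (day 6). Sox2 was the largest part of the day 6 sum, at 10.32 against 9.21 to 9.68 on days 0 to 4. The summed primitive streak and endoderm markers stood at 65 to 232 on days 0 and 2, at 1154 and 1018 (day 4) and at 588 (day 6), and the summed neural progenitor markers went from 563 and 502 (day 0) to 3766 (day 6). Most of the neural sum on day 0 was Nes (9.01 and 8.86), and Hes5 and Dbx1 were listed at 0 there. The 15 feeder fibroblast markers summed to 23375 and 26897 (day 0), 1688 and 1243 (day 2), 447 and 432 (day 4) and 561 (day 6), highest in the day 0 libraries. Twist2 was the only feeder marker at 0 in any library.

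Between day 0 and day 2, with the loss of feeders, serum and LIF, p53 targets moved while the p53 transcript itself did not pass the test. Of the 10 genes, 5 were lower on day 2 (Cdkn1a, Fas, Trp53inp1, Ccng1 and Phlda3) and 1 was higher (Sesn1), where 6.2% of all genes tested were called lower and 5.76% higher, 12% in all (limma, Benjamini-Hochberg adjusted p under 0.05). Their median difference was -1.30 (log2), beside 0.05 over all genes tested. By role, the single arrest gene fell, 2 of 4 death genes fell, and in the feedback and growth control group 2 of 4 fell and 1 rose. The feeder markers moved with them: 15 of 15 fell, with a median difference of -4.46, and the part of feeder RNA in the values of the p53 targets was not tested.

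**Figure D1:**
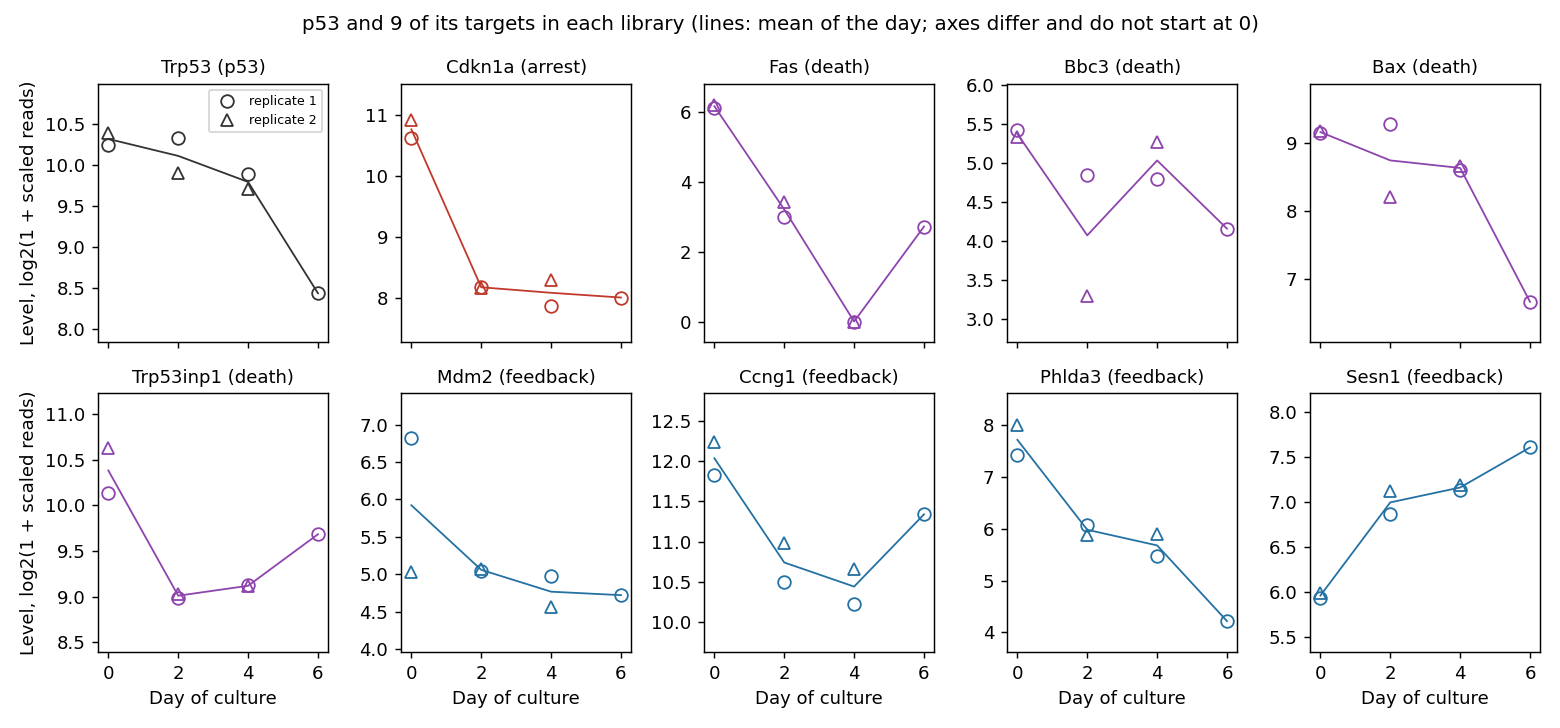
Level (log2 of 1 plus scaled reads, vertical axis, a separate range for each gene and not from 0) of Trp53 and 9 targets by day of culture, with replicate 1 as circles, replicate 2 as triangles and lines joining the day means. Cdkn1a dropped from 10.61 and 10.91 (day 0) to between 7.87 and 8.29 on all later days, Sesn1 climbed from 5.93 and 5.99 to 7.61, and Trp53 was lowest on day 6 at 8.44.

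Trp53 was at 10.25 and 10.39 (day 0), 10.33 and 9.90 (day 2), 9.89 and 9.70 (day 4) and 8.44 (day 6). The gene lies at chr11:69580359-69591873 on the plus strand (GRCm38, GENCODE M21), and no other annotated gene overlaps it. The day 0 and day 2 libraries overlapped, and the difference between them was -0.21 (log2, SE 0.17, adjusted p = 0.497). Across the first 4 days the difference was -0.52 (SE 0.17, adjusted p = 0.0696), with both day 4 libraries below both day 0 libraries. The day 6 library was below the other 6. Against day 4 it was 2.56-fold lower (log2 -1.36, SE 0.20, adjusted p = 0.0268), a test in which the spread of the single day 6 library is taken from the other days. Of the 8 pluripotent cell markers, 6 were called lower at the same step, where 3.18% of all genes tested were called lower. The other 2, Sox2 and Klf4, were not called and had differences above 0 (log2 0.90 and 0.28). The part of these markers in the Trp53 difference was not tested.

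Cdkn1a encodes p21, the inhibitor of cyclin-dependent kinases through which p53 stops the cell cycle (chr17:29090976-29100727, plus strand, with the annotated gene AC167363.2 on the other strand). Its levels were 10.61 and 10.91 (day 0), 8.18 and 8.16 (day 2), 7.87 and 8.29 (day 4) and 8.003 (day 6). The day 0 libraries stood apart from all 5 later ones, which lay within a narrow range of each other. It fell 6.01-fold from day 0 to day 2 (log2 -2.59, SE 0.18, adjusted p = 0.000939). No further difference was called, with -0.09 (SE 0.18, adjusted p = 0.854) from day 2 to day 4 and -0.08 (SE 0.22, adjusted p = 0.926) from day 4 to day 6. Cdkn1a was thus called at the first step, at which Trp53 was not, and Trp53 at the last step, at which Cdkn1a was not, and the difference between the 2 genes was not itself tested.

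Among the death genes, Fas and Trp53inp1 fell by day 2 and Bbc3 and Bax were not called. Fas, the cell surface death receptor (chr19:34290666-34327772, plus strand, overlapped on the same strand by Gm27818), was at 6.12 and 6.22 (day 0), at 3.003 and 3.42 (day 2), 0 as listed for both libraries of day 4, and 2.72 (day 6). From day 0 to day 2 it fell 7.77-fold (log2 -2.96, SE 0.42, adjusted p = 0.00782). The later calls for Fas, lower on day 4 than on day 2 (adjusted p = 0.0176) and higher on day 6 than on day 4 (adjusted p = 0.0433), rest on the listed 0 values, so no fold is given. The day 2 and day 6 levels of Fas are not far above that of 3 reads.

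Trp53inp1 encodes a stress-induced nuclear protein that promotes p53-dependent death and autophagy (chr4:11156431-11174379, plus strand). The day 0 libraries held 10.14 and 10.63, those of day 2 8.99 and 9.03, those of day 4 9.12 and 9.12, and the day 6 library 9.68. It fell 2.59-fold from day 0 to day 2 (log2 -1.37, SE 0.17, adjusted p = 0.00532). The day 6 level lay between those of day 0 and of days 2 and 4, and its difference from day 4 was not called (0.57, SE 0.21, adjusted p = 0.155).

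Bax, the pore-forming protein of the mitochondrial outer membrane in apoptosis (chr7:45461697-45466898, minus strand, overlapped on the same strand by Gm45808), was at 9.15 and 9.18 (day 0), 9.28 and 8.21 (day 2), 8.61 and 8.66 (day 4) and 6.66 (day 6). The day 2 libraries of Bax lay on either side of all other libraries of days 0 and 4. From day 0 to day 2 the difference was -0.42 (SE 0.32, adjusted p = 0.47). On day 6 Bax was 3.94-fold lower than on day 4 (log2 -1.98, SE 0.39, adjusted p = 0.0465), close to the threshold. Bbc3 encodes Puma, a BH3-only protein that triggers apoptosis through Bax (chr7:16308393-16318205, plus strand). Its levels were 5.42 and 5.33 (day 0), 4.84 and 3.30 (day 2), 4.795 and 5.27 (day 4) and 4.16 (day 6), and none of its differences passed (day 2 against day 0 -1.30, SE 0.53, adjusted p = 0.173). Leaving out a day 2 library put the day 2 difference of Bbc3 anywhere between -2.07 and -0.53.

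In the feedback group, Mdm2, the ligase that degrades p53 (chr10:117688875-117710758, minus strand), was at 6.82 and 5.03 (day 0), 5.05 and 5.07 (day 2), 4.98 and 4.56 (day 4) and 4.72 (day 6). A single library, day 0 replicate 1, stood above the other 6. The difference from day 0 to day 2 was -0.86 (SE 0.57, adjusted p = 0.411), and without that library it was 0.03. Ccng1, cyclin G1, which recruits a phosphatase to Mdm2 and so restrains p53 (chr11:40748552-40755311, minus strand), was at 11.83 and 12.24 (day 0), 10.51 and 10.98 (day 2), 10.23 and 10.66 (day 4) and 11.34 (day 6). It fell 2.45-fold by day 2 (log2 -1.30, SE 0.23, adjusted p = 0.0162). As with Trp53inp1, the day 6 level lay between those of day 0 and of days 2 and 4, and the difference from day 4 was not called (0.90, SE 0.28, adjusted p = 0.107).

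Phlda3, a small protein that blocks Akt at the membrane (chr1:135766119-135769136, plus strand), was at 7.42 and 8.01 (day 0), 6.07 and 5.89 (day 2), 5.47 and 5.89 (day 4) and 4.22 (day 6). It was 3.33-fold lower on day 2 than on day 0 (log2 -1.74, SE 0.29, adjusted p = 0.0132). Day 6 was its lowest library, with a difference from day 4 of -1.46 that did not pass (SE 0.35, adjusted p = 0.0662). Sesn1, sestrin 1, which restrains mTORC1 and oxidative stress (chr10:41809935-41908424, plus strand, overlapped on the same strand by 9930024M15Rik), went the other way. Its levels were 5.93 and 5.99 (day 0), 6.87 and 7.13 (day 2), 7.13 and 7.19 (day 4) and 7.61 (day 6), with both day 0 libraries below all later ones. The rise by day 2 was 2.05-fold (log2 1.03, SE 0.18, adjusted p = 0.0164), and the later steps were not called (0.17, adjusted p = 0.652, and 0.45, adjusted p = 0.279).

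**Figure D2:**
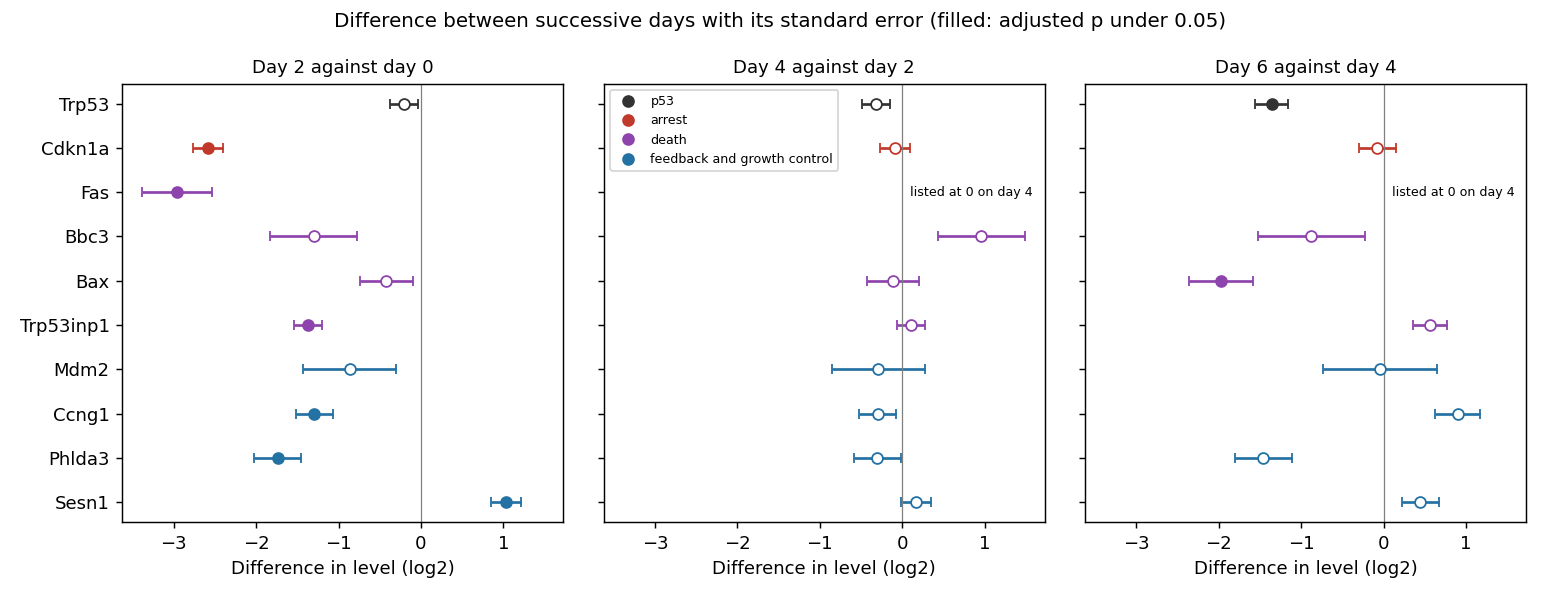
Difference in level (log2, horizontal axis) of each gene between successive days, with bars of 1 standard error, the colour giving the role and filled points an adjusted p under 0.05. In the first panel 5 genes lie to the left of 0 and Sesn1 to the right as filled points, and in the last panel Trp53 (-1.36) and Bax (-1.98) are filled, while Fas is not drawn where it was listed at 0 on day 4.

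After day 2 fewer of these genes were called at each step. From day 2 to day 4, the step with Noggin, Wnt3a and Activin A, Fas was the only 1 of 10 called, where 3.59% of all genes tested were called in either direction. The other 9 differences ran from -0.32 (Trp53) to 0.96 (Bbc3). From day 4 to day 6, the basic FGF step, 3 of 10 were called, Trp53 and Bax lower and Fas higher from its listed 0, where 3.18% of all genes tested were called lower and 1.27% higher, 4.46% in all. The medians of that step were -0.16 for the 4 death genes, with Fas at its listed values, and 0.20 for the 4 feedback and growth control genes.

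Day 4 against day 0 gave the same 6 genes in the same directions as day 2 against day 0, but it shares the day 0 libraries and is no separate evidence. In this comparison 10.4% of all genes tested were called lower and 11.3% higher, 21.7% in all. Cdkn1a was 6.40-fold lower on day 4 than on day 0 (log2 -2.68, adjusted p = 0.000394), Phlda3 4.10-fold (-2.04, adjusted p = 0.00418), Ccng1 3.02-fold (-1.60, adjusted p = 0.00439) and Trp53inp1 2.40-fold (-1.27, adjusted p = 0.00366). Sesn1 was 2.30-fold higher (1.20, adjusted p = 0.00547), and Fas was the gene listed at 0. Over all days together, limma's F test called 8 of the 10 genes, all but Bbc3 and Mdm2, where 28.6% of all genes tested were called.

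The calls of the first step depended on how many libraries and genes were in the fit. Without 1 library of days 0, 2 or 4, between 0 (without day 4 replicate 1, where 6 had an unadjusted p under 0.05) and 2 (without day 4 replicate 2, Cdkn1a and Fas) of the 10 genes were called, Trp53inp1 alone without either day 0 library and Cdkn1a alone without either day 2 library. The called differences kept their signs in these fits, with Cdkn1a at -2.74 to -2.44, Fas at -3.17 to -2.75 and Sesn1 at 0.91 to 1.17. Phlda3 ran from -2.03 to -1.44, Trp53inp1 from -1.62 to -1.13 and Ccng1 from -1.53 to -1.06. When low-level genes were also left out, an alternative chosen after seeing the data, 5 to 7 genes were called each time, among them Cdkn1a, Trp53inp1, Ccng1 and Phlda3 in 6 of 6 fits, where 9.29% to 25% of all genes in these fits were called. Of the day 6 calls, Trp53 passed in 1 of 6 fits without 1 library over all genes and in 6 of 6 without low-level genes, where 9.9% to 25.2% of all genes were called, and Bax in 2 and 4 of 6. Fas did not pass on day 6 in any such fit over all genes. The mean-level filter kept Fas only in the 2 fits without a day 4 library. Each of these takes out 1 of its listed 0 values, so they are no support for the call.

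**Figure D3:**
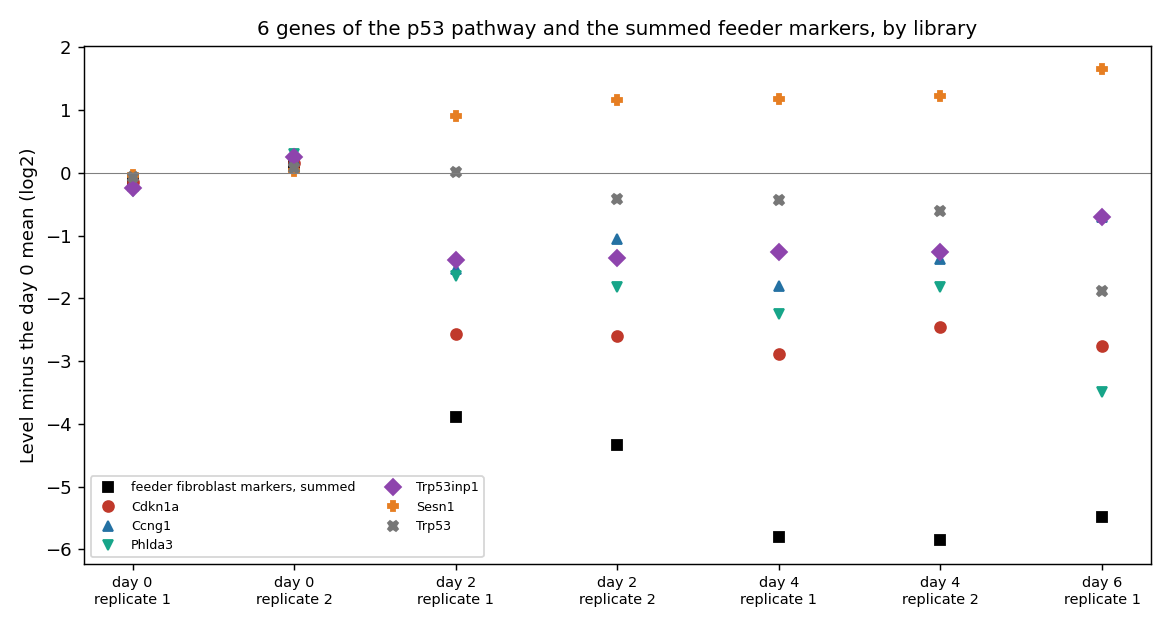
Level minus the day 0 mean (log2, vertical axis) in each of the 7 libraries for 6 of the genes (coloured symbols) and for the 15 feeder fibroblast markers summed (black squares). The feeder sum is highest in the 2 day 0 libraries, as are Cdkn1a, Ccng1, Phlda3 and Trp53inp1, and Sesn1 is lowest there.

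Likeness to 3 of the genes was read over the 7 libraries among 11096 named genes. Those most like Cdkn1a were Pvr, S100a11, Myadm, Bcap31 and Ctgf, with Pearson correlations of 0.997 to 0.994. Ctgf, a secreted matricellular protein made by fibroblasts, was at 9.65 and 9.59 (day 0) and 6.25 to 6.65 later. The genes most like Trp53 were Txn2, Lima1, Wdr46, Mybl2 and Srm (0.998 to 0.995), all with their lowest level on day 6. Mybl2, a cell cycle transcription factor, went from 10.23 and 10.24 (day 0) to 7.25 (day 6). Those most like Mdm2 were Cd274, Ggct, Mrpl24, Mok and Rabggtb (0.925 to 0.886), a likeness that turns on day 0 replicate 1. The libraries of a day lie close together, so these correlations describe the order of the days in few points. Among the 10 genes themselves, Trp53 was closest to Bax (0.972) and stood at 0.514 with Cdkn1a, Trp53inp1 was at 0.94 with Ccng1, and Sesn1 was negative with every other gene.

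Other known p53 targets were read from 4 lists with 50 symbols, of which 46 were tested. On day 2, 10 of the 46 were lower and 1 higher, where 6.2% of all genes tested were lower and 5.76% higher, with a median difference of -0.55, in the libraries in which 15 of 15 feeder markers were lower (median -4.46), whose part in these differences was not tested. Among 9 other arrest targets 2 fell: Plk2, a polo-like kinase, was at 9.55 and 9.71 (day 0) and 7.30 and 7.91 on day 2 (log2 -2.03, SE 0.29, adjusted p = 0.00858), and Btg2, an antiproliferative cofactor of mRNA decay, went from 9.35 and 9.40 to 8.17 and 7.56 (-1.51, adjusted p = 0.00712). Gadd45a, a growth arrest and DNA damage gene, was not called at this step (0.50, adjusted p = 0.353), and neither was Zmat3, an RNA-binding p53 target (-0.15, adjusted p = 0.551).

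Among 14 other death targets 3 fell by day 2. Perp, a desmosome-associated membrane protein, had the largest difference (8.63 and 8.73 against 6.12 and 6.69, log2 -2.28, adjusted p = 0.00826), followed by Eda2r (-1.12, adjusted p = 0.00668) and the death receptor gene Tnfrsf10b (-0.90, adjusted p = 0.0241). Pmaip1, which encodes the BH3-only protein Noxa, was at 8.26 and 8.44 (day 0) and 7.07 and 7.73 (day 2) and did not pass (-0.95, adjusted p = 0.0877). Of the DNA repair targets, the translesion polymerase Polk fell (-1.22, adjusted p = 0.013), while Ddb2 was not called (0.76, adjusted p = 0.518).

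Of 14 metabolic, redox and secreted targets 4 fell by day 2. Ephx1, the microsomal epoxide hydrolase, went from 8.81 and 9.25 to 4.98 and 5.67 (-3.71, adjusted p = 0.0019). The adenylate kinase gene Ak1 fell by 2.09 (adjusted p = 0.00225) and Ano3 fell by 2.02. Sesn2, the paralog of Sesn1, was not called on day 2 (-0.58, adjusted p = 0.193), and on day 4 it was lower than on day 0 (-0.97, adjusted p = 0.0347).

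**Figure D4:**
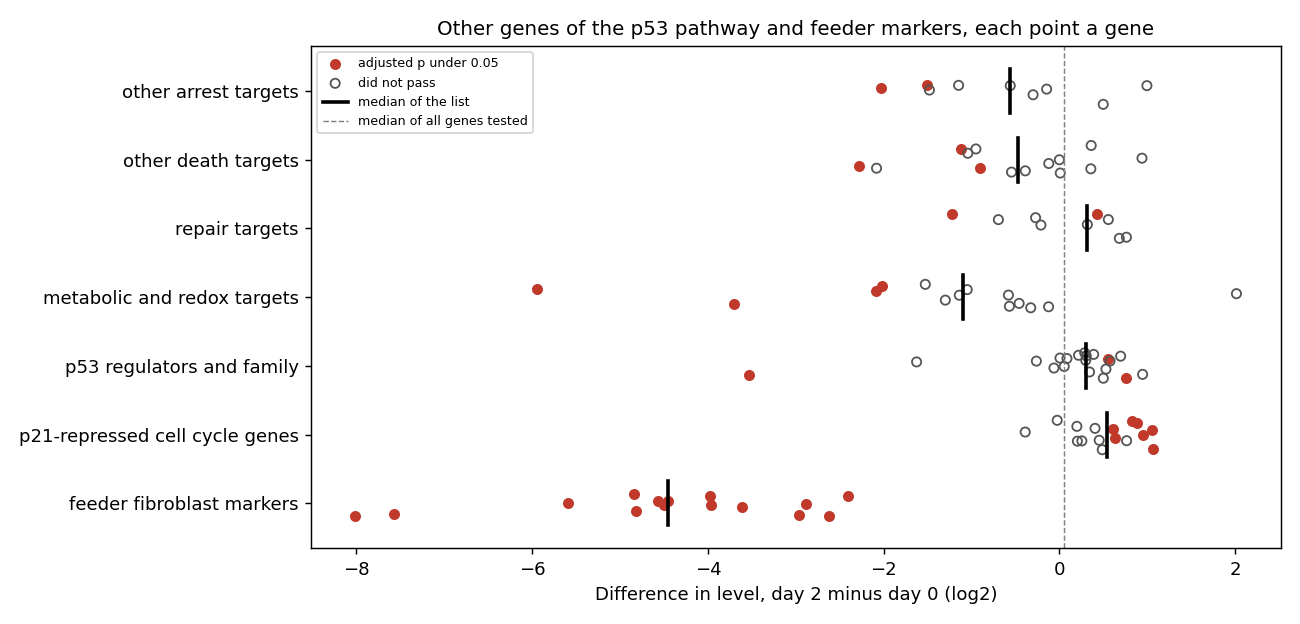
Difference in level between day 2 and day 0 (log2, horizontal axis) of each tested gene of 7 lists, filled where the adjusted p is under 0.05, with a thick bar at the median of each list and a dashed line at the median of all genes tested (0.05). All 15 feeder markers lie to the left, between -8.01 and -2.41, and the 16 genes repressed through p21 have a median of 0.55.

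At the later steps other targets were called in both directions. From day 2 to day 4, 1 of 46 was higher and 3 lower, where 1.45% of all genes tested were higher and 2.13% lower. Trp53i11 rose (log2 2.13, adjusted p = 0.0261), and Gadd45a (7.13 and 7.26 to 4.999 and 5.79, -1.80, adjusted p = 0.0303), Bid (-1.88, adjusted p = 0.0429) and the glutaminase gene Gls2 (-2.88, adjusted p = 0.0427, with 1 day 4 library below the level of 3 reads) fell. From day 4 to day 6, 2 of 46 were higher and 6 lower, where 1.27% of all genes tested were higher and 3.18% lower. Eda2r rose by 1.04 (adjusted p = 0.037) and Ano3 by 2.11 (adjusted p = 0.0412), both part of the way back to day 0. Gtse1, which binds p53 and moves it out of the nucleus in G2, fell by 1.63 (adjusted p = 0.0188), Siva1 fell by 1.34, Aldh4a1 fell by 1.09 and Psrc1 fell by 0.94. Steap3 was at 4.44 and 4.92 (day 4) and 1.10 (day 6), below the level of 3 reads, and Sfn, the 14-3-3 sigma gene of G2 arrest, was at 4.05 and 4.77 and then listed at 0. Day 4 against day 0 had 19 of the 46 lower and 4 higher, where 10.4% of all genes tested were lower and 11.3% higher, so the 4 higher genes are no more than that share.

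Of the 20 regulators and relatives of p53 tested, 2 were higher on day 2 and 1 lower, a share close to the 12% of all genes tested that were called at this step. Trp53bp1, a double-strand break repair factor that binds p53, rose by 0.76 (adjusted p = 0.0243), and Ep300, the acetyltransferase that acts as a p53 coactivator, rose by 0.56 (adjusted p = 0.0377). Bcl6, a repressor of Trp53, went from 5.26 and 6.06 to 2.46 and 1.79 (log2 -3.54, adjusted p = 0.0124), with 1 day 2 library below the level of 3 reads. Mdm4, the partner of Mdm2, ranged only from 9.72 to 10.15 over the 7 libraries and was not called at any step. The damage kinases were not called on day 2 either, with differences of 0.70 for Prkdc, the catalytic subunit of DNA-dependent protein kinase (adjusted p = 0.0513), 0.58 for Atr (adjusted p = 0.0714), 0.50 for Atm (adjusted p = 0.124), 0.34 for Chek1 (adjusted p = 0.359) and 0.09 for Chek2 (adjusted p = 0.878), nor was the phosphatase gene Ppm1d (0.30, adjusted p = 0.29). Prkdc was higher on day 4 than on day 0 (0.66, adjusted p = 0.0418), where 7 of the 20 were called beside 21.7% of all genes tested.

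Cdkn2a, whose Arf product inhibits Mdm2, was at 5.90 and 6.04 (day 0), 4.81 and 3.88 (day 2), 3.29 and 0.86 (day 4) and listed at 0 on day 6. It was lower on day 4 than on day 0 (log2 -3.90, adjusted p = 0.0171), with 1 day 4 library below the level of 3 reads. Its Arf and Ink4a transcripts are not separated in the table. Of the p53 relatives, Trp73 was at 4.55 to 5.46 on days 0 to 4 and at 2.14, the level of 3 reads, on day 6 (-3.18, adjusted p = 0.0218), and Trp63 was listed at 0 in 3 libraries and highest on day 6 (3.39, not called).

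Of 16 cell cycle genes that p53 is known to repress through p21, 7 were higher on day 2 and 9 were not called, where 5.76% of all genes tested were higher. The median difference of the 16 was 0.55, and among those not called were E2f1 (-0.39, adjusted p = 0.39) and Ccne1 (-0.03, adjusted p = 0.974). Mki67, the proliferation marker, was at 10.14 and 9.73 (day 0) and 10.92 and 11.09 on day 2 (log2 1.07, adjusted p = 0.0124), and Bub1, a spindle checkpoint kinase, went from 9.16 and 8.92 to 10.01 and 10.19 (1.06, adjusted p = 0.00951). Cenpf rose by 0.89 (adjusted p = 0.0135). From day 2 to day 4 Ccne1, cyclin E1, was the only 1 called (-1.38, adjusted p = 0.0106), and from day 4 to day 6 Mcm5, a subunit of the replicative helicase, was the only 1 (-1.32, adjusted p = 0.0227). The feeder markers fell in the same libraries in which these 7 genes rose, and their part in the rise was not tested.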

How the data were processed

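RNA was measured in 7 libraries, prepared with a kit that keeps strand, per the labels' protocols. The authors deposited 1 table, holding the natural log of 1 plus scaled reads after quantile normalization. The unit and normalization were inferred from the values: the value of 8 reads was 1.9 to 2.09 times that of 4 when read as a natural log (1.66 to 1.83 as a base-2 log, 2 expected), and after sorting, all columns match to 0.01 at the highest 9896 ranks. Per the submitters' processing notes, reads were placed on GRCm38. No source used here names the aligner, the counter or whether strand was used, so overlapping and antisense genes are uncertain. All 7 value columns were matched to a library through the labels, 1 of them with a letter O for a zero in its name.

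Values were divided by the natural log of 2 and not otherwise changed. After 103 rows of foreign sequence and 8674 genes at 0 throughout were left out, 21813 genes were fitted with limma-trend and robust moderation (limma 3.58.1, R 4.3.3), with 1 mean per day over all libraries, 3 residual degrees of freedom, Benjamini-Hochberg adjustment over all genes and a threshold of 0.05. Folds are of 1 plus scaled reads and so are too small for low genes. The median difference of the 11800 genes whose mean level reached log2 of 11 was 0.14 on day 2 against day 0. No library was a copy of another (at most 0.115% of positive values identical). The fit was also run on simulated data with normal noise whose spread followed the mean level. Changes were put only into genes with a mean level above log2 of 11. Listed 0 values and spread particular to a gene were not simulated. That run therefore does not bear on the calls of Fas or on the calls lost without 1 library.

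The 10 genes are described in every comparison. From other lists, up to 3 genes with the lowest adjusted p past the threshold per comparison, 12 fixed regulators and targets, and any gene that completes a short count were named, the last after their values were seen. The 5 genes most like Trp53, Cdkn1a and Mdm2 were sought by Pearson correlation of levels among genes above the mean-level minimum. The genes and lists were chosen with earlier results of these data known. Alternatives changed the filter on low levels, the pseudocount, the centring, the variance model, the block and the libraries in the fit. Some genes of these lists are not reported here by name.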

Additional observations from a re-analysis of the deposited data

How the results depend on the processing

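Of 40 differences between days for the 10 genes, 16 were called, and none of these changed sign under any alternative run. Signs changed in 7 that were not called: on day 2 against day 0, Trp53 (-0.421 to 0.006 over the fits without 1 library, the last without day 2 replicate 2), Bax (-0.952 to 0.116, likewise) and Mdm2 (-1.759 to 0.032, the last without day 0 replicate 1). On day 4 against day 2 they were Bax (-0.646 to 0.422, without day 2 replicate 1) and Cdkn1a (-0.304 to 0.123, without day 4 replicate 1), and on day 6 against day 4 Cdkn1a (-0.291 to 0.136, without day 4 replicate 2) and Mdm2 (-0.257 to 0.162, without day 4 replicate 1). The values were alike with the mean-level filter, and the cause was not tested.

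Without 1 library of days 0, 2 or 4, the genes called were 0 to 691 on day 2 against day 0 in place of 2609 (the 0, without day 4 replicate 1, with 5502 at an unadjusted p under 0.05), 0 on day 4 against day 2 in place of 782 (3511 to 5139 unadjusted), 0 to 295 on day 6 against day 4 in place of 972 (4549 to 5930 unadjusted), 163 to 4152 on day 4 against day 0 in place of 4731 and 0 to 4181 on any day in place of 6232. Of the 10 genes, 0 to 2, 0, 0 to 2, 1 to 8 and 0 to 8 were called. These fits have fewer samples. With the mean-level filter as well, they were 1094 to 2951, 597 to 1768 (1222 without day 4 replicate 2), 1168 to 2972 (2953 and 2972 without day 2 replicate 1 and 2), 2461 to 4985 (2981 without day 0 replicate 1, 3050 without day 4 replicate 1) and 4023 to 7101 genes, and 5 to 7, 0 to 1, 3 to 4, 5 to 7 and 7 to 8 of the 10.

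The mean-level filter alone called 1422 genes and 0 of the 10 on day 4 against day 2, since it removes Fas. On day 6 against day 4 it called 2200 genes, 18.6% of those in that fit, and 4 of the 10 (Trp53, Bax, Ccng1 and Phlda3). Without trend and robust moderation, 1609, 335 and 609 genes were called at the successive steps, and 1 of the 10 (Fas) on day 6 against day 4, where 362 genes were higher and 247 lower. A pseudocount of 10 called 0 of the 10 on day 4 against day 2 (1 unadjusted) and 1 (Trp53) on day 6 against day 4, where it gave 450 genes higher and 509 lower in place of 278 and 694. With only the libraries of days 2 and 4 and the filter, 0 of the 10 were called between them. The replicate block called 606 genes on day 6 against day 4 and gave Cdkn1a a difference of 0.039, with 2 of the 10 called there (Trp53 and Ccng1). Deviations of same-numbered libraries correlated at -0.058 (days 0 and 2), -0.066 (days 0 and 4) and 0.222 (days 2 and 4) over 11800 genes. The column names of same-numbered libraries share a tag, and these correlations cannot tell whether such libraries share an origin. The table holds no read counts, so count-based tests were not run.

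Depth limits Fas, Bbc3 and Cdkn2a, some of whose levels are near that of 3 reads (1.45 to 2.30).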

Other observations

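Usp7, the deubiquitinase that stabilises Mdm2 and p53, was at 10.98 and 10.82 (day 0), 10.99 and 10.92 (day 2), 10.32 and 10.41 (day 4) and 5.08 (day 6). The difference between days 6 and 4 was -5.28 (log2, adjusted p = 8.71e-05 by limma, with 1 library on day 6). Gapdh was listed at 0 in that library, and a failed estimate of Usp7 there was not tested for. Usp7 was also lower on day 4 than on day 2 (-0.59, adjusted p = 0.0442). Dram1, a p53 target of autophagy, was at 4.55 in day 0 replicate 2 and at 0.25 to 1.01 in the other 6 libraries, below the level of 3 reads. Rrm2b, the p53-induced subunit of ribonucleotide reductase, was at 4.63 and 5.98 in the 2 libraries of day 2 and highest on day 6 at 6.58, with no difference called. Dram1 and Rrm2b were chosen after their values were seen.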
